A study of Homo sapiens and Mus musculus with 18 samples.

Results

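The hedgehog pathway was described through 9 genes: the ligands SHH, IHH and DHH, the receptor PTCH1, the signal transducer SMO, the ligand-binding inhibitor HHIP, and the transcription factors GLI1, GLI2 and GLI3. They were chosen by name as the core ligand, receptor and target genes of the pathway, with earlier results of these data known. All 9 were found among the 63677 gene IDs of the one-library count files and among the 56299 IDs of the human count table. Of the mouse genes, only Hhip (ENSMUSG00000064325) had an ID that was certain, 1 of 37991 IDs in the mouse table.

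All human groups came from the embryonic stem cell line WA09, so they represent 1 line, and all were first driven to splanchnic mesoderm, the embryonic layer that covers the inner organs, with WNT3A and BMP4. MLC, mesothelium-like cells, were replated splanchnic mesoderm kept until day 18 in 20 µM SB431542, an inhibitor of the TGF-beta receptor, and 4 µM retinoic acid. MesoT-derived MLC were replated MesoT in that same MLC medium. MesoT FCS were MesoT cells taken to passage 4 in 10% serum with 8 ng/ml FGF2. The smooth muscle library came from splanchnic mesoderm left in culture for 16 to 18 days. MesoT, the cells against which the other groups were set, received 25 ng/ml WNT3A, 50 ng/ml BMP4 and 4 µM retinoic acid. They were taken at day 18 and at day 22. Each human group had 2 libraries, except smooth muscle with 1, and the labels do not say whether replicates came from separate cultures, so p-values measure a spread that may be technical. The mouse samples, with 1 library per organ, were sorted tdTomato+ cells of Wt1creERT2/+ Rosa26tdT/+ embryos that received tamoxifen from E12.5 and were collected at E15.5 according to the labels. In such embryos the reporter marks cells that expressed Wt1, a mesothelial gene, when tamoxifen acted, and their descendants.

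Hedgehog ligands are secreted proteins that bind PTCH1 on the receiving cell. Without ligand PTCH1 keeps SMO off and GLI3 and GLI2 are cut into repressors, and with ligand SMO enters the primary cilium and full-length GLI factors switch on targets. PTCH1, HHIP and GLI1 are themselves widely used as target genes, so their transcripts are read as signs of pathway activity. In the embryonic lung and gut the epithelium makes the ligand and the surrounding mesoderm, with the mesothelium at its surface, carries the receptors.

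PTCH1 is the member whose promoter, among those searched, holds the consensus motif of GLI factors, and it is shown because PTCH1 levels are followed in every comparison below. The motif GACCACCCA was searched on both strands in the windows from 250 bases before the start of transcription to 50 after it, from RefSeq on GRCh38.p14. It was present in 1 of the 5 PTCH1 windows and in none of the windows of SHH, IHH, DHH, SMO, HHIP and GLI2. Among all 35116 windows, 83 (0.236%) held it, and 81 of 27305 genes (0.297%) had it in at least 1 window. The match in PTCH1 is a description of the letters and not of a bound site. The 250 bases before that start lie on the minus strand at chr9:95509267-95509516 and are given 5′ to 3′, with the match in capitals, which is the reverse complement of the motif and begins at position -172 from the start.
PTCH1: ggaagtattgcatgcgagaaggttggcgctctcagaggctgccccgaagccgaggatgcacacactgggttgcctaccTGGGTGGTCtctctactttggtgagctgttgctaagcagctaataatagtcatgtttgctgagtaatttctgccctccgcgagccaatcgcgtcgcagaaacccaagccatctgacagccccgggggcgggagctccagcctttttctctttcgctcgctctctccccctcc

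Levels are in CPM, counts scaled to library size within each set of libraries, so they compare libraries of 1 gene and not genes with each other, whose lengths differ. Total counts ran between 21148477 and 70679258 in the human libraries, and the MLC libraries, with 65709545 and 70679258, were the deepest. The MesoT day 18 samples were counted in both sets with unequal results, for example 137 HHIP counts in the one-library file and 239 in the table for replicate 2, so levels were tested only within a set. Mesothelium markers were detected in every human library, at sums between 458 and 2736 CPM over 8 genes. Such a sum can be carried by a few abundant genes. It was 1150 and 1031 CPM in MLC and 2036 and 2736 CPM in MesoT-derived MLC, above the MesoT libraries of the same set. Of the 8 genes, 3 were called higher in MLC than in MesoT day 18, where 7.83% of all genes tested were. In MesoT-derived MLC against MesoT 5 were called higher, where 6.63% were, and none was lower in either comparison. The smooth muscle library had 1397 CPM, above 458 and 484 CPM in the MesoT day 18 one-library files. Yet the median log2 difference of the 8 genes between them was -1.19. In the smooth muscle library 6 smooth muscle markers summed to 961 CPM, between the MesoT day 18 one-library files, and none was called against them. Its WT1 had 1 count, and 6 markers of stratified epithelium summed to 1321 CPM, against 33.9 and 31.8 CPM in MesoT day 18. The MesoT replicates also stood apart from each other. In the table, smooth muscle markers summed to 1429 CPM in replicate 1 and 234 CPM in replicate 2 at day 22, and to 1432 and 218 CPM at day 18. They summed to 5897 and 1468 CPM in MesoT FCS, against 1585 and 248 CPM in the one-library files of MesoT day 18. In bulk RNA, fewer cells of a type and less RNA per cell cannot be told apart.

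Calls were made with edgeR's quasi-likelihood test over all genes at an adjusted p under 0.05. DHH did not pass the filter on low counts, so 8 members were tested. In MLC against MesoT FCS, 6 of 8 members were called, 3 higher (IHH, SMO, GLI3) and 3 lower (HHIP, GLI1, GLI2), where 48.9% of all 23049 genes tested were called, 22.6% higher and 26.3% lower. IHH is in this count but passed the filter on low counts through MLC replicate 1 alone, where it is high, so it could hardly be tested without differing. Without any 1 of the 4 libraries that count was 2 to 4, and in the comparisons that follow it ran over 0 to 2 in MLC, 0 to 5 in MesoT FCS and 1 to 4 in smooth muscle against MesoT day 18 and over 0 to 2 in MesoT-derived MLC against MesoT; the libraries are named with each member. The single member called in MLC against MesoT day 18 was GLI2, lower, where 24.6% of genes were called, 7.83% higher and 16.8% lower. In MesoT FCS against MesoT day 18 it was GLI3, lower, where 27.3% were called, 13% higher and 14.4% lower. In smooth muscle against MesoT day 18 it was GLI2, lower, where 8.67% were called, 5.08% higher and 3.58% lower. HHIP and IHH were called in MesoT-derived MLC against MesoT, both higher, where 9.95% were called, 6.63% higher and 3.32% lower. There, too, IHH passed the filter through the MesoT-derived MLC libraries alone. Neither HHIP nor IHH was called against MesoT day 18 alone or MesoT day 22 alone. Differences between the MesoT replicates correlated at 0.56 between day 18 and day 22, so the MesoT libraries may not be independent of each other. With 8 members tested, none of these counts is read as a share of the members that differs from the background. In MesoT day 22 against MesoT day 18 no member and none of the 22316 genes tested was called (0%). There edgeR gave 171 genes and no member an unadjusted p under 0.05, and DESeq2 called 0 genes. That is fewer genes than evenly spread p-values would give. The replicate difference shared by both days enters the spread of this fit, so the lack of calls does not show a lack of change. The libraries of the groups did not overlap for 7 of 8 members in MLC against MesoT FCS (82.2% of all genes tested), for 6 in MLC (68.1%), 5 in MesoT FCS (68.3%) and 6 in smooth muscle (79.5%) against MesoT day 18, for 4 in MesoT-derived MLC against MesoT (46.4%) and for 2 in MesoT day 22 against MesoT day 18 (17.7%). In each comparison the members' share lay near that of all genes, so a lack of overlap below says little by itself.

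**Figure D1:**
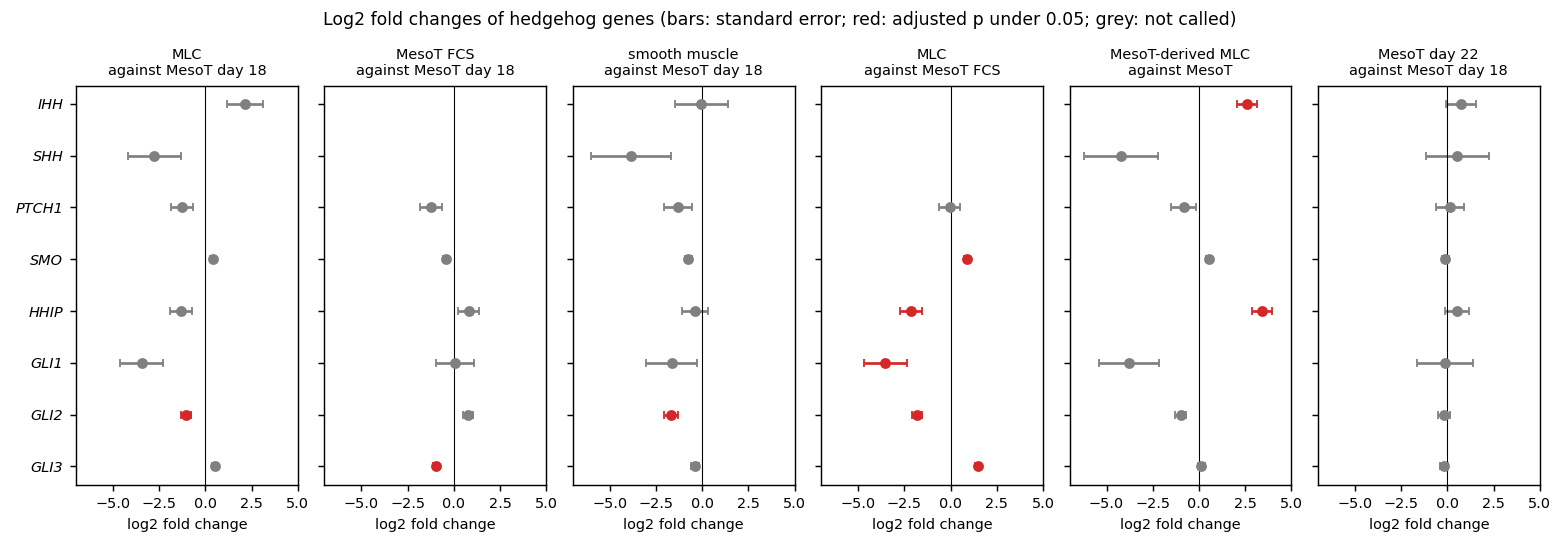
Log2 fold changes of the members in each comparison (x axis; first-named over second-named group) with standard errors; red points passed an adjusted p under 0.05 in edgeR. SHH and IHH are left out of the panels that involve MesoT FCS, which had 0 counts of both, and DHH was not tested. Of the red points 5 lie in the panel of MLC against MesoT FCS and 5 in the others together.

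SHH, the ligand best known from notochord, floor plate and lung and gut epithelium, was uneven between replicates. It reached 0.727 and 0.142 CPM in MLC, 0 and 0 in MesoT FCS and 0.203 in smooth muscle, against 0.354 and 5.60 CPM in MesoT day 18 (replicates 1 and 2). MesoT replicate 2, with 164 counts, was thus above every other library of the set, while replicate 1, with 11 counts, lay within the range of MLC. In the table SHH reached 0.0341 and 0.479 CPM in MesoT-derived MLC, 0.200 and 11.5 CPM in MesoT day 22, and 0.665 and 7.37 CPM in MesoT day 18. Again replicate 2 of both MesoT groups was high and all other libraries were below 1 CPM. No comparison called SHH in the fit without replicate numbers. Its log2 fold change in MLC against MesoT day 18 was -2.76 ± 1.44 (SE; adjusted p = 0.225, edgeR), and in MesoT-derived MLC against MesoT it was -4.21 ± 1.98 (adjusted p = 0.208, edgeR). With no count in MesoT FCS, SHH was at least 39.0-fold lower there than in MesoT day 18, taking a limit of 3 counts over the group (adjusted p = 0.0651, edgeR). That limit rests on MesoT day 18 replicate 2 and is 4.76-fold without it. It is 75.3-fold without MesoT day 18 replicate 1, where the difference was called (adjusted p = 0.023, edgeR), and 17.3-fold and 21.7-fold without MesoT FCS replicate 1 or 2. In MLC SHH was at least 5.99-fold higher than in MesoT FCS (adjusted p = 0.144, edgeR), or 1.91-fold without MLC replicate 1, 9.77-fold without MLC replicate 2, and 2.66-fold and 3.33-fold without MesoT FCS replicate 1 or 2. These limits and the intervals given below cover counting error only. The notochord and floor plate markers TBXT, NOTO and FOXA2 together stayed at or below 0.307 CPM in the one-library files and between 1.23 and 2.94 CPM in the table. These sums hide single markers. In MesoT replicates 1 and 2 of the table TBXT reached 0.0666 and 2.00 CPM at day 22 and 0.332 and 0.586 CPM at day 18. NOTO reached 1.13 and 0.799 CPM at day 22 and 1.07 and 1.76 CPM at day 18. The same day 18 samples had 0.0322 and 0 CPM of NOTO in the one-library files, so the sums of both sets are not alike. The part of such cells in the level of SHH was not tested.

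IHH, the ligand known from cartilage and from the differentiated gut epithelium, was low in every library and highest in both kinds of MLC. It reached 0.462 and 0.299 CPM in MLC (35 and 21 counts), 0 in both MesoT FCS libraries and 0.0814 CPM in smooth muscle, against 0.0322 and 0.137 CPM in MesoT day 18 (1 and 4 counts). Both MLC libraries were above all others. IHH was called higher in MLC than in MesoT FCS, by at least 5.16-fold (adjusted p = 0.0315, edgeR). Leaving out 1 library, that limit ran over 2.29-fold to 6.21-fold, with the lowest value without MesoT FCS replicate 1. Since IHH passed the filter on low counts through MLC replicate 1 alone, this call is a description of the levels and supports nothing further. The log2 fold change of 2.15 ± 0.97 in MLC against MesoT day 18 was not called (adjusted p = 0.174, edgeR). In the table IHH reached 0.649 and 0.855 CPM in MesoT-derived MLC (19 and 25 counts), against 0.0999 and 0.218 CPM in MesoT day 22 and 0.0369 and 0.147 CPM in MesoT day 18. The groups did not overlap, and IHH was called 6.06-fold higher in MesoT-derived MLC (log2 2.60 ± 0.55, adjusted p = 0.0405, edgeR). In this set it passed the filter through both MesoT-derived MLC libraries and no other, so this call, too, describes the levels. Both calls rest on few counts, and the second was not made against MesoT day 18 alone or MesoT day 22 alone. The first was lost without MLC replicate 2 or without either MesoT FCS replicate, at adjusted p values between 0.0743 and 0.104, and without MLC replicate 1 or the smooth muscle library IHH did not pass the filter on low counts. The second was lost without any library of the table except MesoT day 18 replicate 2, at adjusted p values between 0.052 and 0.24 (edgeR).

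The sum of gut epithelium markers was, like IHH, highest in both kinds of MLC. Over 8 genes it was 55.5 and 33.6 CPM in MLC, 5.67 and 7.54 CPM in MesoT FCS and 22.0 CPM in smooth muscle. In MesoT day 18 it was 9.66 and 13.1 CPM, of which VIL1 made 8.08 and 11.4 CPM. The same samples had 1.26 and 2.05 CPM of VIL1 in the table. In smooth muscle the sum was above both MesoT day 18 libraries, while IHH, at 0.0814 CPM, lay between them. In the table the sum was 46.8 and 245 CPM in MesoT-derived MLC, where IHH reached 0.649 and 0.855 CPM. It was 2.30 and 5.41 CPM in MesoT day 22 and 3.43 and 4.10 CPM in MesoT day 18. Of the 8 genes, 6 were called higher in MLC than in MesoT FCS, where 22.6% of all genes tested were. In MesoT-derived MLC against MesoT 7 were called higher, where 6.63% of all genes tested were. FABP1, KRT20 and MUC13 had 1934, 547 and 532 counts in MLC and at most 3 in each other group of that set. They passed the filter on low counts through MLC alone and could hardly be tested without differing, so these counts describe the levels. MUC13 had 4405 counts in MesoT-derived MLC and 0 in MesoT day 18 of the table. CDX2, CDH17, LGALS4, FABP1 and KRT20 were at 0 counts in both MesoT FCS libraries, and FABP1, KRT20 and MUC13 were at 0 in both MesoT day 18 one-library files. Hepatocyte markers, 6 genes, summed to 127 and 57.1 CPM in MLC and to 0.803 and 0.335 CPM in MesoT FCS, against 3.32 and 2.63 CPM in MesoT day 18. They summed to 95.7 and 226 CPM in MesoT-derived MLC, against 1.37 to 4.58 CPM in the MesoT libraries of the table. The part of such cells in the level of IHH was not tested.

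DHH, the ligand known from Schwann cells, testis and endothelium, was at the limit of detection. It had between 0 and 6 counts in every human library, with 0.0793 and 0.0427 CPM in MLC, 0 and 0 in MesoT FCS and 0.163 in smooth muscle, against 0.161 and 0.205 CPM in MesoT day 18. In the table no library exceeded 0.185 CPM. With 0 counts in MesoT FCS and 11 in MesoT day 18, DHH was at least 2.45-fold lower in MesoT FCS, or 1.09-fold without MesoT FCS replicate 1 and 1.36-fold without replicate 2. That limit covers counting error only, with no test over replicates, and in MLC against MesoT FCS the difference was within the limit of 3 counts.

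**Figure D2:**
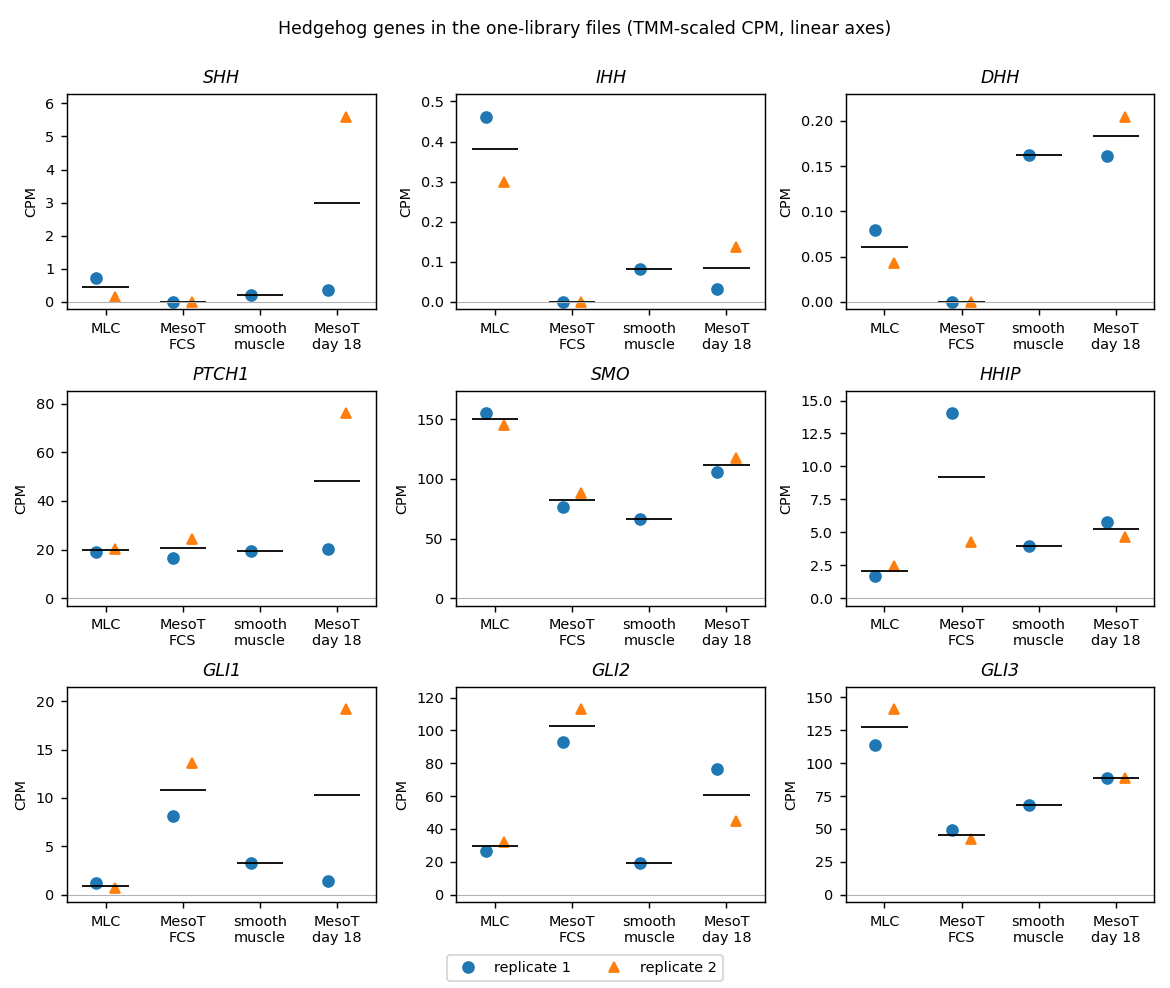
CPM of the 9 members in the one-library files (linear axes; circles replicate 1, triangles replicate 2, line the group mean; MLC, MesoT FCS and smooth muscle left of MesoT day 18). SHH, PTCH1 and GLI1 show 1 high MesoT day 18 library and 1 low one, while SMO, GLI2 and GLI3 have replicates close together in MLC and MesoT FCS.

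PTCH1, the ligand receptor and a target gene, was even across the groups except for 1 MesoT library per time point. It reached 19.1 and 20.4 CPM in MLC, 16.6 and 24.4 in MesoT FCS and 19.5 in smooth muscle, against 20.2 and 76.2 CPM in MesoT day 18. MesoT replicate 1 lay within the other groups and replicate 2 was far above all of them. In the table PTCH1 reached 33.2 and 36.7 CPM in MesoT-derived MLC, 27.4 and 103 CPM in MesoT day 22, and 26.8 and 90.9 CPM in MesoT day 18. There, too, replicate 2 of MesoT was high. No comparison called PTCH1: log2 fold changes were -1.28 ± 0.59 in MLC, -1.23 ± 0.59 in MesoT FCS and -1.31 ± 0.75 in smooth muscle against MesoT day 18 (adjusted p = 0.163, 0.162 and 0.292, edgeR). All 3 were called once MesoT day 18 replicate 1 was left out, at -1.85, -1.93 and -1.99 (adjusted p = 0.00929, 0.00754 and 0.0210, edgeR), and without replicate 2 the log2 fold change in MesoT FCS was 0.02. Between MLC and MesoT FCS it was -0.05 ± 0.58.

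SMO, the transducer that PTCH1 holds off, had replicates close together and its higher levels in MLC. It reached 155 and 145 CPM in MLC, 76.4 and 87.8 CPM in MesoT FCS and 66.2 CPM in smooth muscle, against 106 and 117 CPM in MesoT day 18. The groups did not overlap. SMO was 1.83-fold higher in MLC than in MesoT FCS (log2 0.87 ± 0.16, adjusted p = 0.00748, edgeR), a call lost without MLC replicate 1 (adjusted p = 0.0656) or 2 (adjusted p = 0.0544). Against MesoT day 18 its log2 differences were 0.43 ± 0.16 in MLC, -0.44 ± 0.16 in MesoT FCS and -0.75 ± 0.20 in smooth muscle, none called (adjusted p = 0.105, 0.0895 and 0.0725, edgeR). Without MesoT day 18 replicate 1, SMO was called lower in MesoT FCS, at -0.55, and in smooth muscle, at -0.85 (adjusted p = 0.0485 and 0.0392, edgeR). In the table it reached 199 and 165 CPM in MesoT-derived MLC, 126 and 115 CPM in MesoT day 22, and 128 and 131 CPM in MesoT day 18. Both MesoT-derived MLC libraries were above all 4 MesoT libraries, at a log2 difference of 0.54 ± 0.15 that was not called (adjusted p = 0.0781, edgeR).

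HHIP, which binds ligand at the cell surface and limits signalling, was low in MLC and high in MesoT-derived MLC. In the one-library files it reached 1.72 and 2.48 CPM in MLC, 14.1 and 4.30 CPM in MesoT FCS and 3.99 CPM in smooth muscle, against 5.80 and 4.68 CPM in MesoT day 18. Both MLC libraries were below all others. In the table it reached 41.9 and 194 CPM in MesoT-derived MLC, 14.45 and 11.8 CPM in MesoT day 22, and 9.67 and 8.76 CPM in MesoT day 18. Both MesoT-derived MLC libraries were above all MesoT libraries, and they differed from each other more than the MesoT libraries did. HHIP was 4.38-fold lower in MLC than in MesoT FCS (log2 -2.13 ± 0.59, adjusted p = 0.0286, edgeR). It was 10.7-fold higher in MesoT-derived MLC than in MesoT (log2 3.42 ± 0.54, adjusted p = 0.0236, edgeR). Since MLC and MesoT-derived MLC were counted in different sets, they were not tested against each other. The log2 difference was -1.32 ± 0.58 in MLC against MesoT day 18 and in MesoT FCS against MesoT day 18 it was 0.81 ± 0.57, neither called (adjusted p = 0.151 and 0.319, edgeR).

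The HHIP calls turned on single libraries. HHIP was also not called in MesoT-derived MLC against MesoT day 18 alone or MesoT day 22 alone. The lower level in MLC than in MesoT FCS was not called without MesoT FCS replicate 1 (log2 -1.04, adjusted p = 0.115), nor without MLC replicate 1 (adjusted p = 0.152) or 2 (adjusted p = 0.105, edgeR). The higher level in MesoT-derived MLC was not called without MesoT-derived MLC replicate 2 (log2 1.95, adjusted p = 0.0840), without MesoT day 18 replicate 2 (adjusted p = 0.0516) or without either MesoT day 22 replicate (adjusted p = 0.0840 and 0.0839, edgeR). In MesoT-derived MLC the gut epithelium and hepatocyte sums were also higher in replicate 2, the replicate with more HHIP, and their part in HHIP was not tested. In MLC those sums were above MesoT FCS while HHIP was below it.

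HHIP-AS1 is a transcript that starts beside HHIP on the opposite strand, and the strand setting of the counting is not given in the sources used here, so reads near their starts are uncertain between them. It reached 4.27 and 9.58 CPM in MesoT-derived MLC, against 2.50 and 3.81 CPM in MesoT day 22 and 1.55 and 2.27 CPM in MesoT day 18. Its libraries stood in the same order of groups as those of HHIP, at a log2 difference from MesoT of 1.49 ± 0.40 that was not called (adjusted p = 0.0673, edgeR). In the one-library files it reached 1.98 and 2.58 CPM in MLC, 4.64 and 2.96 CPM in MesoT FCS and 1.14 CPM in smooth muscle, against 1.32 and 2.02 CPM in MesoT day 18. In none of the comparisons was it called. The 136 bases between the RefSeq starts of both genes, at chr4:144646020-144646155 on the plus strand of GRCh38.p14, are shown because the starts of both genes bound them, and they hold no GLI motif.
HHIP-AS1 to HHIP: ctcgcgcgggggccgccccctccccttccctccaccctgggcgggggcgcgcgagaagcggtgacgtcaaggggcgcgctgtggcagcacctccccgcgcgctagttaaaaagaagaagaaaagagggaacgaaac

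**Figure D3:**
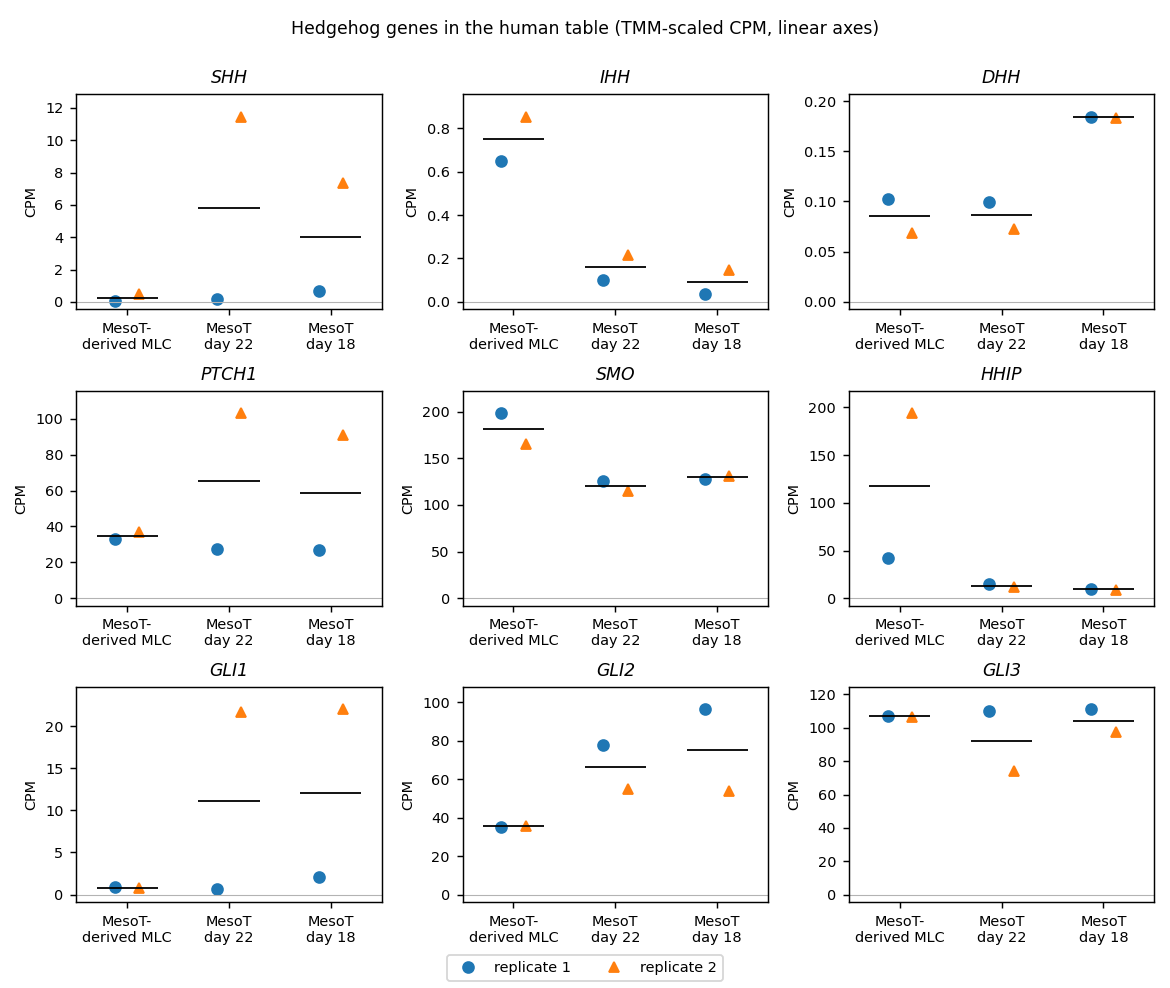
CPM of the 9 members in the human table (linear axes; circles replicate 1, triangles replicate 2, line the group mean; MesoT-derived MLC left of MesoT day 22 and MesoT day 18). HHIP and IHH are highest in MesoT-derived MLC, and SHH, PTCH1 and GLI1 are highest in replicate 2 of both MesoT groups.

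GLI1, an activator that is itself switched on by the pathway, was low in both kinds of MLC. It reached 1.18 and 0.698 CPM in MLC, 8.12 and 13.6 CPM in MesoT FCS and 3.25 CPM in smooth muscle, against 1.39 and 19.2 CPM in MesoT day 18. Both MLC libraries lay below all others, though only narrowly below MesoT day 18 replicate 1. GLI1 was 11.5-fold lower in MLC than in MesoT FCS (log2 -3.53 ± 1.16, adjusted p = 0.0468, edgeR), and this call was lost without any 1 of the 4 libraries (adjusted p between 0.0859 and 0.209). The log2 difference of -3.45 ± 1.15 in MLC against MesoT day 18 was not called (adjusted p = 0.0781, edgeR), and without MesoT day 18 replicate 1 it was, at -4.26 (adjusted p = 0.00575). In smooth muscle it was -1.66 ± 1.396 (adjusted p = 0.458, edgeR) and, without MesoT day 18 replicate 1, -2.58 with a call (adjusted p = 0.0415). In MesoT FCS against MesoT day 18 it was 0.08 ± 1.04 (adjusted p = 0.964, edgeR), with 2.96 and a call without MesoT day 18 replicate 2 (adjusted p = 0.028) and -0.87 without replicate 1. In the table GLI1 reached 0.888 and 0.787 CPM in MesoT-derived MLC, 0.633 and 21.6 CPM in MesoT day 22, and 2.105 and 22.0 CPM in MesoT day 18. Both MesoT-derived MLC libraries were close to MesoT day 22 replicate 1 (log2 -3.78 ± 1.65 against MesoT, adjusted p = 0.181, edgeR).

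GLI2, the main activator of the pathway at its onset in mouse, was lower in MLC and in the 1 smooth muscle library and highest in MesoT FCS. It reached 26.7 and 32.0 CPM in MLC, 93.0 and 113 CPM in MesoT FCS and 19.0 CPM in smooth muscle, against 76.6 and 45.1 CPM in MesoT day 18. No group overlapped another. GLI2 was 3.51-fold lower in MLC than in MesoT FCS (log2 -1.81 ± 0.29, adjusted p = 0.00448, edgeR), and the call remained without any 1 of the 4 libraries. It was 2.07-fold lower in MLC than in MesoT day 18 (log2 -1.05 ± 0.28, adjusted p = 0.0437, edgeR). That call was lost without MLC replicate 1 (adjusted p = 0.246) or 2 (adjusted p = 0.167) and without MesoT day 18 replicate 1, where the log2 difference was -0.53 (adjusted p = 0.106, edgeR). In the smooth muscle library it was 3.20-fold lower than in MesoT day 18 (log2 -1.68 ± 0.38, adjusted p = 0.0496, edgeR). The fit takes the spread of the other groups for that single library, so the call describes the library and not smooth muscle cultures. The call remained without either MesoT day 18 replicate. In MesoT FCS the log2 difference of 0.76 ± 0.28 was not called (adjusted p = 0.0937, edgeR), but was without MesoT day 18 replicate 1, at 1.15 (adjusted p = 0.0157). In the table GLI2 reached 35.4 and 35.5 CPM in MesoT-derived MLC, 78.0 and 55.0 CPM in MesoT day 22, and 96.3 and 53.9 CPM in MesoT day 18. Both MesoT-derived MLC libraries were below all MesoT libraries, at a log2 difference of -0.996 ± 0.287 (adjusted p = 0.0794, edgeR), called without MesoT day 18 replicate 2 (log2 -1.17, adjusted p = 0.0399).

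GLI3, known mainly as the repressor of the pathway in the absence of ligand, was ordered opposite to GLI2 between MLC and MesoT FCS. It reached 114 and 141 CPM in MLC, 48.8 and 42.3 CPM in MesoT FCS and 68.1 CPM in smooth muscle, against 88.5 and 88.9 CPM in MesoT day 18. No group overlapped another. GLI3 was 2.79-fold higher in MLC than in MesoT FCS (log2 1.48 ± 0.18, adjusted p = 0.00181, edgeR), and the call remained without any 1 of the 4 libraries. It was 1.95-fold lower in MesoT FCS than in MesoT day 18 (log2 -0.96 ± 0.18, adjusted p = 0.0154, edgeR), a call lost without MesoT FCS replicate 1 (adjusted p = 0.0508) or 2 (adjusted p = 0.0717). In MLC against MesoT day 18 the log2 difference was 0.52 ± 0.18 (adjusted p = 0.0796, edgeR) and in smooth muscle it was -0.38 ± 0.22 (adjusted p = 0.286, edgeR). In the table GLI3 reached 107 and 106 CPM in MesoT-derived MLC, 110 and 73.8 CPM in MesoT day 22, and 111 and 97.6 CPM in MesoT day 18. Those groups overlapped (log2 0.12 ± 0.20 for MesoT-derived MLC against MesoT, adjusted p = 0.705, edgeR).

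Between MesoT day 22 and MesoT day 18 the log2 differences of the 8 members tested were smaller than their standard errors. They were 0.54 ± 1.70 for SHH, 0.75 ± 0.81 for IHH, 0.15 ± 0.74 for PTCH1 and -0.12 ± 1.501 for GLI1. SMO differed by -0.10 ± 0.18, GLI2 by -0.18 ± 0.32 and GLI3 by -0.18 ± 0.23. HHIP, with both day 22 libraries above both day 18 libraries, differed by 0.51 ± 0.65.

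SHH, GLI1 and PTCH1 differed between the MesoT replicates in the same direction at both time points and in both counts of day 18, which share their samples. SHH was 57.4-fold higher in MesoT replicate 2 than in replicate 1 at day 22 and 11.1-fold at day 18 of the table, and GLI1 was 34.2-fold and 10.4-fold higher. PTCH1 was 3.77-fold and 3.39-fold higher. SMO had ratios of replicate 2 over 1 of 0.913 and 1.03, and HHIP 0.814 and 0.905. GLI2 and GLI3 were lower in replicate 2, with ratios of 0.706 and 0.559 for GLI2 and 0.669 and 0.879 for GLI3, while in the one-library files of day 18 that ratio was 1.004 for GLI3. FOXF1, a target in gut mesoderm named here after its values were seen, was lower in replicate 2, at 1.38 CPM against 2.16 CPM in replicate 1 at day 22 and 1.80 against 11.6 CPM at day 18. Of the 21271 genes that averaged 10 or more counts, 3.03% were over 2-fold higher and 2.7% over 2-fold lower in replicate 2 at both time points. These are single libraries at each point, so no test was made. The smooth muscle marker sums given above were lower in the replicate with more SHH, GLI1 and PTCH1, and their part was not tested.

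Transcripts of several genes that finish, release and capture the ligand were lower in MesoT FCS. The lists of such genes were chosen with earlier results of these data known, so their shares describe the levels and give no independent support. Of 6 genes of ligand processing and release, 4 were lower in MesoT FCS than in MesoT day 18 (median log2 -2.11, against -0.16 over all genes tested), and of 5 co-receptors and other receptors 3 were lower (median -1.18), where 14.4% of all genes tested were lower. Cell type markers differed as well: 4 of 7 endothelium markers were lower (median -3.60), of 8 mesothelium markers 3 were lower and 1 higher (median -2.28), and 1 of 6 hepatocyte markers was lower (median -4.03). The endothelium sum was 49.1 and 10.8 CPM in MesoT FCS against 276 and 107 CPM in MesoT day 18, and the mesothelium sum was 1151 and 690 CPM in MesoT FCS against 458 and 484 CPM in MesoT day 18. Their part in the values that follow was not tested. DISP1, which releases lipid-bearing ligand from the cell, reached 7.23 and 11.8 CPM in MesoT FCS, against 54.9 and 102 CPM in MesoT day 18 (log2 -3.05 ± 0.38, adjusted p = 0.00665, edgeR). SCUBE1, a secreted protein of the family that carries ligand away, had 1 count in MesoT FCS and 3797 in MesoT day 18, or 0.000394 of the level there (95% counting interval 9.97e-06 to 0.00220). CDON, a co-receptor that presents ligand to PTCH1, reached 5.49 and 12.2 CPM in MesoT FCS, against 45.8 and 61.6 CPM in MesoT day 18 (log2 -2.61 ± 0.40, adjusted p = 0.00987, edgeR). LRP2, a large endocytic receptor that takes up SHH, reached 0.179 and 0.0558 CPM against 44.5 and 158 CPM (log2 -9.64 ± 0.93, adjusted p = 0.00398, edgeR). In MesoT FCS 3 counts over the group make 0.0744 CPM, so LRP2 rests on few counts there and the size of its fold is uncertain. The other genes called lower in these lists were SCUBE3, HHAT, the acyltransferase that adds palmitate to ligand, and BOC, a co-receptor related to CDON. SCUBE3 lost its call without MesoT day 18 replicate 1, HHAT without MesoT day 18 replicate 2, and BOC without either MesoT FCS replicate 1 or MesoT day 18 replicate 2.

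The other lists were mixed in MesoT FCS against MesoT day 18, with shares called of the order of the 27.3% of all genes. Of 13 intracellular regulators, KIF7 and GRK2 were higher and GSK3B and BTRC lower. Of 15 genes of the primary cilium, INPP5E, a ciliary lipid phosphatase, was higher, at 29.7 and 28.6 CPM in MesoT FCS against 11.8 and 11.6 CPM in MesoT day 18 (log2 1.32 ± 0.17, adjusted p = 0.00719, edgeR), and OFD1, TTBK2 and CEP290 were lower. Of 11 downstream targets, FOXL1 and NR2F2 were higher and MYCN and CCND2 lower. FOXL1, a gut mesoderm target, reached 24.8 and 22.5 CPM in MesoT FCS against 7.21 and 9.19 CPM in MesoT day 18 (log2 1.53 ± 0.24, adjusted p = 0.0108, edgeR). MYCN, a growth regulator, had 0.179 CPM and 0 in MesoT FCS against 37.5 and 52.8 CPM in MesoT day 18 (log2 -8.80 ± 0.64, adjusted p = 0.00235, edgeR). Its level in MesoT FCS rests on few counts, so the size of this fold is uncertain. Of the 19 genes named from all lists in this comparison, 7 lost their call without MesoT FCS replicate 1 (BOC, KIF7, GSK3B, BTRC, OFD1, TTBK2 and CEP290) and 7 without MesoT FCS replicate 2 (NR2F2, GRK2, GSK3B, BTRC, OFD1, TTBK2 and CEP290). Without MesoT day 18 replicate 2, 5 did (BOC, CCND2, HHAT, TTBK2 and CEP290).

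In each of these lists more genes were called higher than lower in MLC against MesoT FCS. The comparison shares the MesoT FCS libraries with the one above, and 22.6% of all genes tested were higher and 26.3% lower. Cell type markers differed as well. Of 8 mesothelium markers 6 were higher and 1 lower (median log2 3.45). Of 6 smooth muscle markers 4 were lower and none higher (median -5.46). Gut epithelium and hepatocyte markers were higher in 6 of 8 and 6 of 6 genes, with none lower (medians 9.33 and 8.75). The part of these differences in the values of this and the next paragraph was not tested. Of the 6 genes of ligand processing and release 4 were higher and none lower (median log2 2.52, against 0 over all genes tested). Of the 5 co-receptors and other receptors 3 were higher and none lower (median 1.34). CDON reached 264 and 303 CPM in MLC, against 5.49 and 12.2 CPM in MesoT FCS (log2 5.01 ± 0.44, adjusted p = 0.000719, edgeR). LRP2 reached 270 and 236 CPM in MLC, against 0.179 and 0.0558 CPM (log2 10.97 ± 0.95, adjusted p = 0.000685, edgeR), a fold that rests on few counts in MesoT FCS. DISP1 reached 83.2 and 86.0 CPM in MLC, against 7.23 and 11.8 CPM (log2 3.15 ± 0.39, adjusted p = 0.0019, edgeR). SCUBE1 had 6118 counts in MLC and 1 in MesoT FCS, or 1690 times the level (interval 303 to 66779).

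Of the 15 cilium genes in MLC against MesoT FCS, 7 were higher and 1 lower (median log2 0.45). CEP290, a protein of the ciliary transition zone, reached 74.8 and 82.8 CPM in MLC, against 28.5 and 32.5 CPM in MesoT FCS (log2 1.37 ± 0.16, adjusted p = 0.00158, edgeR). OFD1 and TTBK2, which act at the base of the cilium, were 2.60-fold and 2.34-fold higher, and IFT88, a carrier protein within it, 2.02-fold. Of the 13 intracellular regulators 4 were higher, BTRC, STK36, GSK3B and PRKACB, and 2 lower. Of the 11 targets 5 were higher and 3 lower. FOXL1 was 26.6-fold lower, at 0.885 and 0.883 CPM in MLC against 24.8 and 22.5 CPM in MesoT FCS (adjusted p = 0.000244, edgeR). MYCN reached 48.3 and 41.0 CPM in MLC against 0.179 CPM and 0 (log2 8.78 ± 0.64, adjusted p = 0.000428, edgeR), which also rests on few counts in MesoT FCS. FOXF2 had 439 counts in MLC and 1 in MesoT FCS, or 121 times the level (interval 21.7 to 4802). Of the 19 genes named in this comparison, calls were lost without MLC replicate 1 (SFRP1, PRKACB, HHAT and IFT88), MLC replicate 2 (BOC, STK36, GSK3B, PRKACB, HHAT and IFT88), MesoT FCS replicate 1 (BOC, PRKACB and IFT88) and MesoT FCS replicate 2 (PRKACB).

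**Figure D4:**
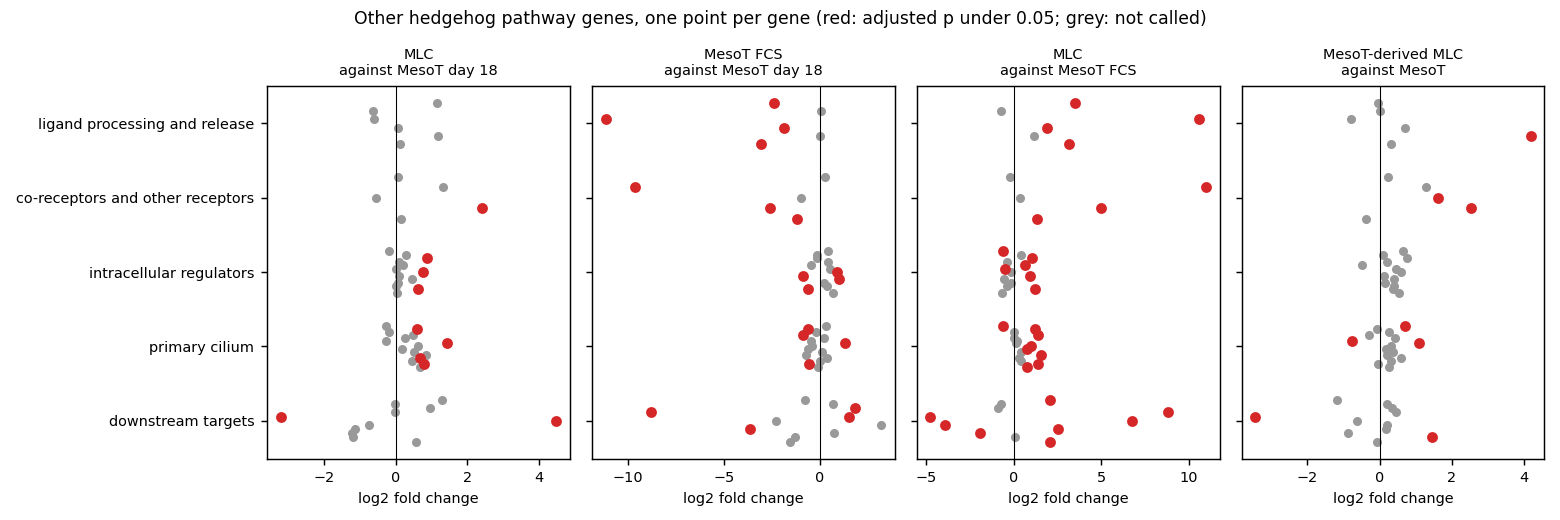
Log2 fold changes of 50 further pathway genes (x axis; 1 point per gene, vertical scatter without meaning) by list in 4 comparisons; red points passed an adjusted p under 0.05 in edgeR. The SCUBE1 and FOXF2 points in the panels with MesoT FCS rest on 1 count in that group, and those of LRP2 and MYCN on few counts. Ligand processing genes and co-receptors lie mostly to the left in MesoT FCS and to the right in MLC against it.

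In MLC against MesoT day 18, CDON was the single co-receptor called, at 264 and 303 CPM in MLC against 45.8 and 61.6 CPM in MesoT day 18 (log2 2.40 ± 0.39, adjusted p = 0.00898, edgeR). None of the 6 ligand processing genes was called, where 7.83% of all genes tested were higher and 16.8% lower. Of the 13 regulators STK36, KIF7 and BTRC were higher, and of the 15 cilium genes INPP5E, CEP290, EVC and TTBK2 were higher, with none lower in either list (medians 0.10 and 0.52, against -0.03 over all genes tested). INPP5E reached 29.6 and 33.7 CPM in MLC against 11.8 and 11.6 CPM in MesoT day 18 (log2 1.44 ± 0.17, adjusted p = 0.00311, edgeR). Among the 11 targets FOXF2 was higher, at 2.52 and 3.53 CPM in MLC against 0.161 and 0.102 CPM in MesoT day 18, having passed the filter on low counts through the MLC libraries and, narrowly, smooth muscle, and FOXL1 was lower, at 0.885 and 0.883 CPM in MLC against 7.21 and 9.19 CPM (log2 -3.21 ± 0.26, adjusted p = 0.00092, edgeR). Of these 10 genes, 7 lost their call without MLC replicate 1, all but FOXL1, INPP5E and FOXF2, and 8 without MLC replicate 2, all but FOXL1 and INPP5E. Without MesoT day 18 replicate 1, TTBK2 alone lost its call.

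In MesoT-derived MLC against MesoT, 2 of the 5 co-receptors were higher, where 6.63% of all genes tested were. CDON reached 364 and 490 CPM in MesoT-derived MLC, against 75.6 and 92.0 CPM in MesoT day 22 and 60.2 and 72.1 CPM in MesoT day 18 (log2 2.52 ± 0.20, adjusted p = 0.0105, edgeR). GAS1, a membrane-anchored co-receptor, reached 113 and 168 CPM, against 42.2 and 41.3 CPM in MesoT day 22 and 37.5 and 62.4 CPM in MesoT day 18 (log2 1.62 ± 0.25, adjusted p = 0.0235, edgeR). DISP2 was 18.1-fold higher, at 5.22 and 11.01 CPM in MesoT-derived MLC against at most 0.665 CPM in any MesoT library. Among the cilium genes INPP5E and TULP3 were higher and KIF3A, a motor subunit of ciliary transport, lower. Among the targets BMP4 was higher, 2.75-fold, and FOXL1 10.9-fold lower, at 0.854 and 0.581 CPM against 4.66 to 10.2 CPM in the MesoT libraries (adjusted p = 0.0142, edgeR). No regulator was called. All 8 of these calls, like all others of the comparison, were lost without MesoT day 22 replicate 1 or without MesoT-derived MLC replicate 2, where edgeR called 0 of all genes tested. Without MesoT day 22 replicate 2, GAS1, BMP4, INPP5E, TULP3 and KIF3A were lost, and without MesoT-derived MLC replicate 1, GAS1, FOXL1, INPP5E, TULP3 and KIF3A. KIF3A also lost its call without either MesoT day 18 replicate, and TULP3 without MesoT day 18 replicate 2.

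In the smooth muscle library, 8 of the 50 genes of these lists were called against MesoT day 18, where 8.67% of all genes tested were. These calls take the spread of the other groups for a single library, so they describe that library. DISP1, at 10.4 CPM against 54.9 and 102 CPM, and SCUBE1, at 1.38 CPM against 25.8 and 102 CPM, were lower (adjusted p = 0.0298 and 0.0336, edgeR). DYNC2H1 and IFT88, both parts of ciliary transport, were 5.22-fold and 4.43-fold lower, while INPP5E and TULP3 were 2.24-fold and 2.18-fold higher. OSR1 was 2.93-fold lower and GRK2, a kinase that acts on SMO, 2.37-fold higher. The call of TULP3 was lost without MesoT day 18 replicate 2. The high stratified epithelium markers of this library stand beside all of these values and their part was not tested.

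Across the 13 human libraries, with each set centred apart, each of 6 members was set beside 12031 genes whose mean log2 CPM was 1 or more to name the genes most like it, and the day 18 samples enter through both sets. GLI1 was closest to TBC1D22A-DT (Pearson r = 0.94), PITPNA-AS1 (0.89) and NAA38 (0.88), and PTCH1 to YPEL1 (0.89), LTA4H (0.87) and SNED1 (0.87). GLI2 was closest to STK17A (0.97), SRP19 (0.95) and LIMD2 (0.95). GLI3 was closest to RFX7 (0.98), ZNF532 (0.97) and PRDM2 (0.97), and SMO to PARD3 (0.98), KAT14 (0.96) and HDAC4 (0.96). HHIP was closest to CYBRD1 (0.92), SLC25A29 (0.91) and CYTH3 (0.91). An r above 0.9 was reached by 179 genes for GLI3, by 71 for SMO, by 25 for GLI2, by 4 for HHIP, by 1 for GLI1 and by none for PTCH1. Among the members, GLI1 and PTCH1 had r = 0.78 and GLI3 and SMO r = 0.74, while GLI2 and GLI3 had r = -0.51 and HHIP and GLI1 r = -0.20. The libraries share groups and replicate differences, so these values are descriptions without a test.

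In the mouse Wt1-lineage cells Hhip was highest in lung. It had 3 counts in heart, 660 in gut, 2428 in liver and 15820 in lung, of totals between 21541758 and 31502905. That gave 0.0952 CPM in heart (95% exact Poisson interval 0.0196 to 0.278), 23.0 CPM in gut (21.2 to 24.8), 88.6 CPM in liver (85.1 to 92.2) and 734 CPM in lung (723 to 746). The intervals did not overlap between any 2 organs. Lung was 8.29-fold above liver (interval 7.94 to 8.65) and 32.0-fold above gut (29.6 to 34.6), and liver was 3.86-fold above gut (3.54 to 4.21). The ratio of lung to heart, which rests on 3 counts, was 7712 (2638 to 37399). In CPM, Hhip was in lung above 99.3% of the 18381 genes that averaged 10 or more counts, in liver above 86.1%, in gut above 57.2% and in heart above 1.83%. These ranks are not corrected for gene length, so they depend on the length of Hhip as well as on its level. Being over 2-fold higher in lung than in each other organ held for 1.4% of the 18381 genes. With 1 library per organ these ratios compare libraries, and no replicate error can be given. The organ labels were not checked against markers, since no other mouse ID is paired with a gene name in the sources used here.

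**Figure D5:**
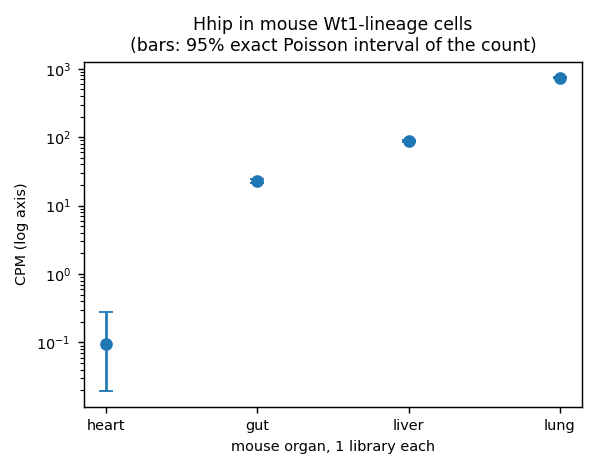
Hhip CPM in Wt1-lineage cells of 4 embryonic mouse organs (log axis; 1 library each; bars are 95% exact Poisson intervals). The points run from 0.0952 CPM in heart through gut and liver to 734 CPM in lung.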

How the data were processed

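Deposited were unnormalised counts of reads for each Ensembl gene: 7 one-library files (MLC, MesoT FCS, smooth muscle, MesoT day 18), a human table of 6 libraries and a mouse table of 4. The submitters' processing notes name, without roles, the aligners Bowtie2 2.2.9 and TopHat2 2.0.13, the counter featureCounts and Subread 1.4.2, the peak caller MACS2 2.1.1, and hg19; the sources used here do not give the annotation, strand setting or mouse build. The mouse table's headers give E14.5 where the labels give E15.5. Not analysed here were 3 ChIP samples.

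Symbols were matched for 52181 of 63677, 46802 of 56299 and 0 of 37991 IDs. The 2 human sets were fitted apart with edgeR 4.0.16 in R 4.3.3 (TMM scaling, a filterByExpr filter with the groups given, the quasi-likelihood test, p adjusted by Benjamini-Hochberg over all genes, 3 residual degrees of freedom); standard errors come from the F statistic. MesoT-derived MLC were set against the mean of both MesoT groups. DESeq2 1.42.0 was an alternative. Scripts were tested on simulated data. CPM is TMM-scaled, and for mouse is on total counts. Where a group had 0 counts, folds were bounded by 3 counts over the group, and ratios resting on 1 to 3 counts have 95% exact binomial intervals.

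The members, pathway lists and markers were chosen with earlier results of these data known. Named are the members, HHIP-AS1, up to 4 genes with the smallest p per list and comparison among those called, and the 3 genes most correlated with each member whose mean log2 CPM was 1 or more, leaving out RefSeq pseudogenes, mitochondrial, ribosomal and clone-named genes. Promoters were matched by symbol to RefSeq (GRCh38.p14); GLI1 and GLI3 were not matched.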

Additional observations from a re-analysis of the deposited data

How the results depend on the processing

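Over all members tested, comparisons and alternatives, 349 of 430 results kept their direction and side of the threshold, 33 lost a call, 28 gained one and 20 changed sign. A group left with 1 library was assumed to vary like the others. Genes called, leaving out 1 library, ranged over 4966 to 8507 in MLC against MesoT FCS (members 2 to 4), 1714 to 6601 in MLC (0 to 2), 2783 to 7845 in MesoT FCS (0 to 5) and 2339 to 4293 in smooth muscle (1 to 4) against MesoT day 18, and 0 to 2996 in MesoT-derived MLC against MesoT (0 to 2). With DESeq2, members called were 4 in MLC, 3 in MesoT FCS and 2 in smooth muscle against MesoT day 18 and 4 in MesoT-derived MLC against MesoT, with 4925 genes in smooth muscle (1998 with edgeR) and 4604 in MesoT-derived MLC (2220). Without the filter on low counts, members called were 2 in MLC and 2 in MesoT FCS against MesoT day 18 and 1 in MesoT-derived MLC. Using MesoT day 18 as counted in the human table, genes called were 9238 in MLC, 12759 in MesoT FCS and 7935 in smooth muscle, with 5 members in MLC and 2 in MesoT FCS. Against MesoT day 18 alone 380 genes and 0 members were called in MesoT-derived MLC, and against MesoT day 22 alone 612 and 0. RLE scaling changed no member's call. Leaving the smooth muscle library out of the fit, an alternative chosen after seeing the data, gave 5 members in MLC against MesoT FCS, since IHH then failed the filter on low counts, as it did without MLC replicate 1 and with the replicate block. DESeq2 gave IHH no adjusted p in MesoT FCS and smooth muscle against MesoT day 18.

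The labels do not say that a replicate number marks a shared culture or day, and with 2 replicates the data cannot settle it. Deviations of same-numbered libraries correlated at 0.01 to 0.07 in the one-library files. In the table they correlated at 0.56 (MesoT day 22 with day 18), -0.01 and -0.06. The MesoT replicates thus differed alike at both days, while the fit without a block treated these libraries as independent. With a replicate block 0 members were called in MLC against MesoT day 18 (GLI2 adjusted p = 0.0666, edgeR), GLI1 lost its call in MLC against MesoT FCS (adjusted p = 0.0629), and SHH gained one in MesoT-derived MLC against MesoT (adjusted p = 0.0296). No paired analysis was possible for smooth muscle because it has 1 library.

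Changes of sign were confined to members without a call. Ranges of log2 differences without 1 library each were, against MesoT day 18, -4.35 to 0.29 for SHH in MLC; -1.93 to 0.016 for PTCH1, -0.28 to 1.42 for HHIP and -0.87 to 2.96 for GLI1 (-0.34 without MesoT FCS replicate 2) in MesoT FCS; and -0.75 to 1.25 for IHH and -2.58 to 1.23 for GLI1 in smooth muscle, where IHH was 0.15 with the table's day 18. PTCH1 in MLC against MesoT FCS ranged over -0.31 to 0.25 and was 0.0059 with no filter. In MesoT day 22 against MesoT day 18 the ranges were -4.295 to 3.12 for SHH (-0.35 without MesoT day 18 replicate 1, -0.17 with a replicate block), -1.10 to 1.28 for PTCH1 (-0.49 without MesoT day 18 replicate 1), -4.24 to 2.40 for GLI1 (0.85 without MesoT day 22 replicate 1), -0.54 to 0.30 for GLI2 (0.05 without MesoT day 22 replicate 2) and -0.50 to 0.080 for GLI3. The cause of these changes was not tested. Depth limits IHH and DHH, with at most 35 and 6 counts in any human library.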
